A study of Mus musculus with 4 samples.

Results

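The 7 genes described here encode small leucine-rich proteoglycans, and they were taken by symbol from the deposited count table: Lum, Dcn, Bgn, Fmod, Ogn, Prelp and Aspn. All 7 were present among the 39179 gene identifiers of the table. The counts come from RNA sequencing of cardiac progenitors grown out of mouse embryonic stem cells that carry an inducible Gata6 (iGATA6), a single line that both groups share. The labels do not say whether Gata6 was induced. One group was kept in DMSO at 0.1% of the medium and the other in the plant triterpenoid cucurbitacin I hydrate at 10 µM, which is known to block JAK2 and STAT3, for 2 days. The labels give no DMSO level for the cucurbitacin I group. Each group held 2 libraries. Exposure started on day 6; the harvest is day 8 by the sample titles but day 10 by the extraction protocol. Since separate cultures are not stated for the libraries of a group, each p-value measures only a spread between samples that may be technical.

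Small leucine-rich proteoglycans are secreted matrix proteins with a curved core of leucine-rich repeats, and most of them carry chondroitin, dermatan or keratan sulfate chains. They bind collagen fibrils and govern fibril diameter and spacing, and several of them hold growth factors such as TGF-beta or act on cell-surface receptors. In the heart they are products mainly of fibroblasts and other connective-tissue cells and take part in valve formation and in scar building.

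Total counts per library were between 23759431 and 27069312. Other library measures moved with the groups: mitochondrial genes took 0.534% and 0.768% of counts in DMSO and 1.19% and 1.5% in cucurbitacin I, the 20 most abundant genes 6.97% and 7.77% against 12.6% and 12.9%, and 22002 and 21887 genes against 21002 and 20788 had a count. Their part in the results was not tested. Levels are given as CPM, the counts scaled to library size with TMM factors. The 8 cardiomyocyte markers examined were all detected in each group and summed to 9677 and 12299 CPM in DMSO and to 29314 and 37002 CPM in cucurbitacin I. The 8 cardiac progenitor markers, Isl1 and Gata4 among them, were also detected in each group, at 1140 and 1198 CPM in DMSO and 676 and 861 CPM in cucurbitacin I.

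Transcripts of lumican, decorin, biglycan and fibromodulin were lower in cucurbitacin I than in DMSO, by between 10.8-fold and 52.8-fold. The other 3 members, Prelp, Ogn and Aspn, had 8 counts or fewer in each group and were not tested. Opticin and podocan, a pair of relatives from the same family, were higher in cucurbitacin I. In the edgeR quasi-likelihood test with Benjamini-Hochberg adjustment over 16722 genes, 4 of the 7 members were called lower at an adjusted p below 0.05, where 19.5% of all genes tested were called lower. The CPM of the groups did not overlap for any of these 4, as for 37.4% of all genes tested in that direction. No member was called higher with edgeR, at an unadjusted p below 0.05 or with DESeq2 (0 in each case, where DESeq2 called 12.6% of its genes higher). Lum, Dcn and Fmod passed the filter on low counts only through the DMSO libraries, so the count of 4 is a description of these genes and supports nothing by itself. In bulk RNA, fewer cells of a type and less RNA per cell cannot be told apart.

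**Figure D1:**
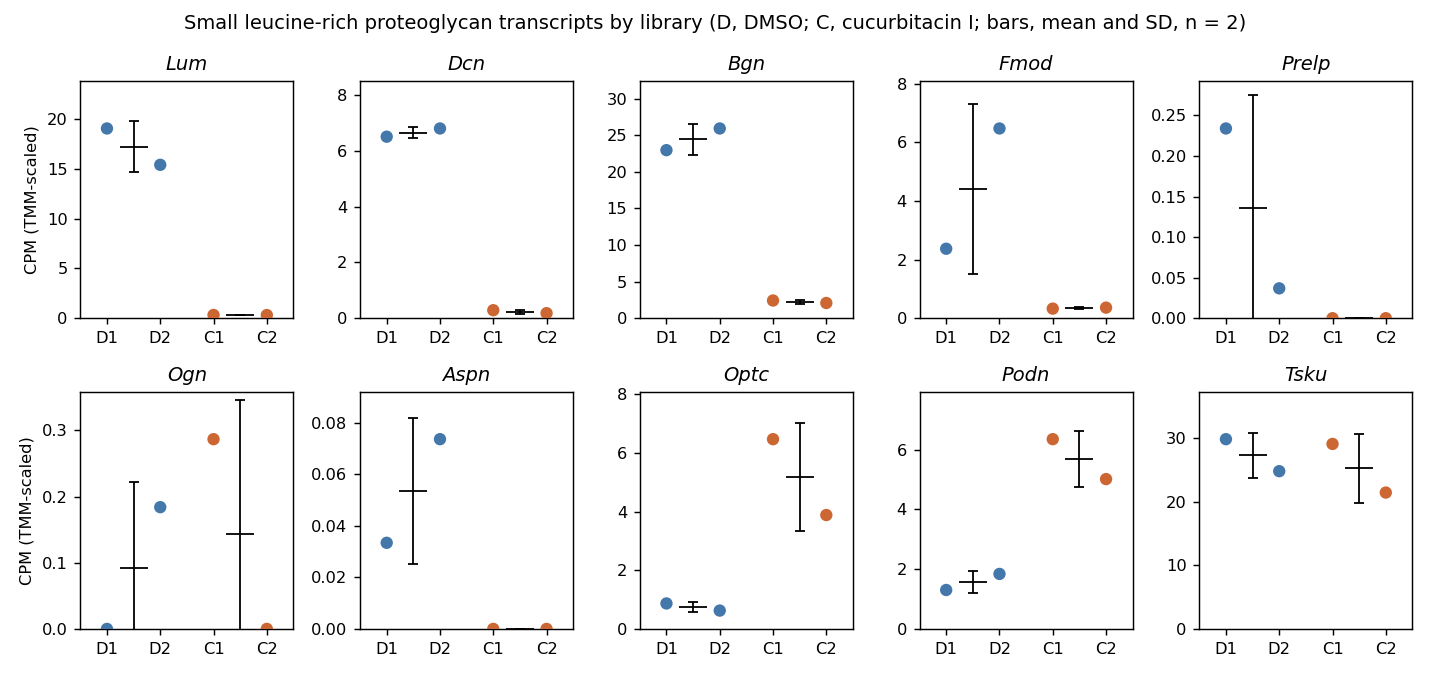
CPM (scaled by trimmed mean of M values, TMM) in each of the 4 libraries for the 7 members and for Optc, Podn and Tsku; points are libraries, horizontal bars are group means and whiskers are SD (n = 2), cut at 0. Lum, Dcn, Bgn and Fmod are lower in both cucurbitacin I libraries, Optc and Podn are higher, and Tsku overlaps between the groups.

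Lumican carries keratan sulfate and is known for the fine, even collagen fibrils of the cornea. The Lum gene (ENSMUSG00000036446) lies on mm10 chromosome 10, 97565501 to 97572703. Its counts were 571 and 419 in DMSO and 8 and 7 in cucurbitacin I, or 19.1 and 15.4 CPM against 0.328 and 0.316 CPM. Both DMSO libraries stood far above both cucurbitacin I libraries, and the latter pair lay close together. Lum fell by 5.72 on the log2 scale (SE 0.26, 95% interval -6.38 to -5.06, adjusted p = 0.000935), which made it the 176th lowest log2 fold change of the 16722 genes tested.

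Decorin, which binds collagen fibrils and TGF-beta and is a ligand of receptor tyrosine kinases such as EGFR and MET, is encoded 47.3 kb away. Dcn (ENSMUSG00000019929) occupies chromosome 10, 97479500 to 97518162. Its counts were 195 and 185 in DMSO and 7 and 4 in cucurbitacin I, corresponding to 6.51 and 6.81 CPM and to 0.287 and 0.181 CPM. The DMSO libraries were nearly equal, and the groups did not overlap. Dcn fell by 4.79 (SE 0.32, 95% interval -5.60 to -3.98, adjusted p = 0.00187). Keratocan and epiphycan, the other two genes of this chromosome 10 cluster of 203 kb, were scarcely counted. Kera had 5 and 1 counts in DMSO and none in cucurbitacin I, and Epyc had 0 and 3 counts in DMSO and none in cucurbitacin I. With cucurbitacin I set to 3 counts over the group, the Kera ratio of DMSO to cucurbitacin I was 1.63. That ratio leaves out the counting error of the DMSO libraries. With no filter on low counts the edgeR adjusted p for Kera was 0.206.

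Biglycan, the closest relative of decorin, binds collagen and is known in mouse macrophages as a ligand of Toll-like receptors. Bgn (ENSMUSG00000031375) lies on chromosome X, 73483602 to 73495933. It was the best-counted member, with 687 and 704 counts in DMSO and 59 and 46 in cucurbitacin I. These are 23.0 and 25.9 CPM in DMSO and 2.42 and 2.08 CPM in cucurbitacin I. The replicates of each group were close and the groups did not overlap. Bgn fell by 3.44 (SE 0.18, 95% interval -3.89 to -2.98, adjusted p = 0.00128). Its interval does not overlap those of Lum and Dcn, so the fall of Bgn was the smaller one on the log2 scale. Bgn alone among the 4 members had more than 10 counts in every library.

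Fibromodulin binds collagen type I and is known to guide lysyl oxidase to fibrils. Fmod (ENSMUSG00000041559) lies on chromosome 1, 134037254 to 134048277, with 71 and 176 counts in DMSO and 8 and 8 in cucurbitacin I. The DMSO libraries stood at 2.37 and 6.48 CPM, a ratio of 2.73 between replicates, and the cucurbitacin I libraries at 0.328 and 0.361 CPM. The groups did not overlap, but the spread within DMSO was the widest of the 4 members. Fmod fell by 3.66 (SE 0.63, 95% interval -5.23 to -2.10, adjusted p = 0.0119). Without DMSO replicate 2 the log2 fold change was -2.77 (adjusted p = 0.0215). At an adjusted p threshold of 0.01, which 7.55% of all genes tested passed as lower, Fmod lost its call. The 6 epicardial markers showed a like imbalance, summing to 42.7 CPM in DMSO replicate 1 and 163 CPM in DMSO replicate 2, against 40.6 and 71.0 CPM in cucurbitacin I. None of those 6 was at 0 in either group, and 3 of them were called lower. The imbalance was not particular to that list. In DMSO replicates 1 and 2, Col1a1 stood at 139 and 447 CPM and Lox at 2.61 and 6.55 CPM. The sum of the 8 tendon and cartilage markers went the other way, at 227 and 154 CPM. Col2a1 made up most of that sum, at 199 and 129 CPM. Sox9 stood at 23.5 and 22.1 CPM and Scx at 1.97 and 2.17 CPM. The part of epicardial cells in the Fmod result was not tested.

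In the authors' deposited table the log2 fold changes were -5.18 for Lum, -4.26 for Dcn, -3.34 for Bgn and -2.74 for Fmod. The adjusted p values in the authors' deposited table ran from 7.37e-58 for Bgn to 2.37e-06 for Fmod.

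**Figure D2:**
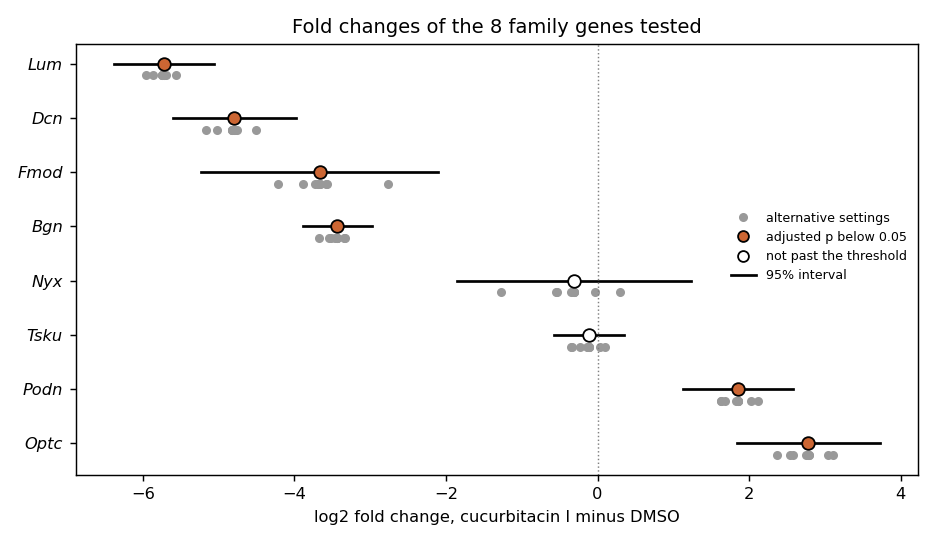
Log2 fold change of cucurbitacin I minus DMSO for the 8 family genes tested; large points are the edgeR values, black lines their 95% intervals, and small grey points the same gene under the alternative settings. Lum, Dcn, Fmod and Bgn lie between -5.72 and -3.44, Tsku and Nyx straddle 0, and Podn and Optc lie at 1.86 and 2.78.

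The remaining members were at the edge of detection. Prelp, whose product anchors basement membranes to the underlying collagen (ENSMUSG00000041577, chromosome 1, 133910304 to 133921414), had 7 and 1 counts in DMSO and 0 and 0 in cucurbitacin I. With cucurbitacin I set to 3 counts over the group, the Prelp ratio of DMSO to cucurbitacin I was 2.17. That ratio leaves out the counting error of the DMSO libraries. Ogn, which encodes the fibril-regulating osteoglycin (ENSMUSG00000021390, chromosome 13, 49608071 to 49624500), had 0 and 5 counts in DMSO and 7 and 0 in cucurbitacin I. The Ogn groups overlapped, and the ratio of DMSO to cucurbitacin I was 0.582 with an exact 95% counting interval of 0.146 to 2.13. Aspn, which encodes asporin, a collagen and TGF-beta binder (ENSMUSG00000021388, chromosome 13, 49544443 to 49567557), had 1 and 2 counts in DMSO and 0 and 0 in cucurbitacin I. Both groups were at or under 3 counts, so a difference in Aspn was not detectable at this depth and no fold is given. With no filter on low counts the edgeR adjusted p was 0.161 for Prelp, 0.75 for Ogn and 0.369 for Aspn. The interval covers counting error only, and the floor covers it for the cucurbitacin I group alone.

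Ogn and Aspn form a cluster of 120 kb with Omd and Ecm2 on chromosome 13, and none of these 4 genes passed the filter. Omd had 1 count in a single cucurbitacin I library, and Ecm2 had 1 and 2 counts in DMSO and 3 and 1 in cucurbitacin I. The whole cluster lies within the span of Cenpp, a centromere protein gene on the opposite strand with 154 and 168 counts in DMSO and 42 and 61 in cucurbitacin I. The sources used here do not say whether the strand was used in counting, so reads of Cenpp and of the 4 proteoglycan genes cannot be told apart where their exons meet.

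The chromosome 1 cluster held genes called in opposite directions, Optc higher and Fmod lower, with the untested Prelp between them. Optc, Prelp and Fmod lie in that order within 151 kb, with Optc 2.3 kb from Prelp and Prelp 116 kb from Fmod. Opticin, encoded by Optc (ENSMUSG00000010311, chromosome 1, 133897199 to 133907999), is a glycoprotein known from the vitreous of the eye. Its counts were 26 and 17 in DMSO and 158 and 86 in cucurbitacin I, or 0.869 and 0.626 CPM and 6.47 and 3.89 CPM. Both cucurbitacin I libraries were above both DMSO libraries, although they differed from each other. Optc rose by 2.78 (SE 0.38, 95% interval 1.84 to 3.73, adjusted p = 0.00679), the 41st highest log2 fold change of the genes tested. An antisense gene, Gm15851, overlaps Optc and Prelp and had at most 2 counts in any library.

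Upstream sequences are shown for Fmod and Optc, the tested genes of this cluster, and for Bgn, the best-counted member. RefSeq windows on GRCm38.p6 were matched for 14 of the 17 family genes; those of Lum, Dcn and Podnl1 were not used here. Each line gives the 250 bases before the annotated start, 5′ to 3′ on the gene's strand, with CpG dinucleotides in capitals. The windows are chr1:134037004-134037253 on the plus strand for Fmod, chr1:133908000-133908249 on the minus strand for Optc and chrX:73483351-73483600 on the plus strand for Bgn.
Fmod: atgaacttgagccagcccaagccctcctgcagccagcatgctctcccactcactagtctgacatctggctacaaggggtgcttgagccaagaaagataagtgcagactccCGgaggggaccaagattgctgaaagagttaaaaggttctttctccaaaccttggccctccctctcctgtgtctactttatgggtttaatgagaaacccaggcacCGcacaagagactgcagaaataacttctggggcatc
Optc: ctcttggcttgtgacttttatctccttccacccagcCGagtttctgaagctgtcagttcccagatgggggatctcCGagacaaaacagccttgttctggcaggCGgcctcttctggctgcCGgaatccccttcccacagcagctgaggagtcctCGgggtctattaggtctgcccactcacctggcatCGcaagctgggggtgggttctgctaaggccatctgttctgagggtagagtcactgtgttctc
Bgn: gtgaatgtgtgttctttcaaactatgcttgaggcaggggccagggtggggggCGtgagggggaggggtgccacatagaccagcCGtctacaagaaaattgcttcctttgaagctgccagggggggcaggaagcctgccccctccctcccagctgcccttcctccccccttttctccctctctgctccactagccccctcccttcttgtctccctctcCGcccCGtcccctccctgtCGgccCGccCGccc

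Fmod had 2 CpG dinucleotides and 51.2% GC in this window, Optc 6 and 56.8%, and Bgn 7 and 64.4%. The median over all 32851 windows was 6 CpG dinucleotides and 52.4% GC, so Fmod was below the median in CpG count while Optc and Bgn were at or just above it. The motif of STAT factors (TTCNNNGAA), that of TEAD factors (CATTCC), the TATA box (as TATAAA) and the CArG box bound by SRF were searched on both strands and did not occur in the windows of Fmod, Optc or Bgn. Of all windows, 7.02% held the STAT motif, 12.6% the TEAD motif, 12.4% the TATA box and 1.47% the CArG box.

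Podocan, known from kidney and vessel wall, is encoded by Podn (ENSMUSG00000028600, chromosome 4, 108014791 to 108096445). Podn had 39 and 50 counts in DMSO and 155 and 111 in cucurbitacin I, and its levels were 1.30 and 1.84 CPM against 6.35 and 5.02 CPM. The groups did not overlap. Podn rose by 1.86 (SE 0.29, adjusted p = 0.00929), a call lost without DMSO replicate 1 (1.63, adjusted p = 0.0549). The deposited span of Podn overlaps that of Scp2 on the same strand, which had 1135 to 1459 counts per library and did not pass. Among the 10 relatives outside the list, 4 were tested, and Optc and Podn were called higher, where 13.9% of all genes tested were. Groups that did not overlap, with cucurbitacin I above, occurred in 35.6% of genes. Tsukushi, a secreted modulator of BMP and Wnt signalling encoded by Tsku, was at 29.8 and 24.8 CPM in DMSO and at 29.1 and 21.4 CPM in cucurbitacin I. The Tsku groups overlapped (log2 fold change -0.11, 95% interval -0.58 to 0.36, adjusted p = 0.67), and the sign turned without DMSO replicate 1 or cucurbitacin I replicate 2. Nyx, the nyctalopin gene, did not pass either, at -0.31 (95% interval -1.86 to 1.23, adjusted p = 0.723). Podnl1 and Chad were not tested, with at most 7 counts in any library, and Chad lies within the span of Acsf2 on the opposite strand.

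Levels of different genes were compared per kilobase of exon (RPKM, TMM-scaled). In DMSO, Lum stood at 7.05 ± 1.06 RPKM, Bgn at 4.01 ± 0.34, Fmod at 1.34 ± 0.88 and Dcn at 1.14 ± 0.036 (SD, n = 2). Fmod and Dcn did not differ beyond the spread of Fmod, while Lum and Bgn were separated. In cucurbitacin I, Bgn led at 0.369 ± 0.039 RPKM, followed by Lum at 0.132 ± 0.0033, Fmod at 0.104 ± 0.0072 and Dcn at 0.040 ± 0.013 (SD, n = 2). The levels of Lum, Fmod and Dcn there rest on 8 and 7, 8 and 8, and 7 and 4 counts. Their SDs leave out counting error, so the order among Lum, Fmod and Dcn in cucurbitacin I is not settled. In RPKM, Lum led the members in both DMSO libraries and Bgn in both cucurbitacin I libraries. The order in DMSO rests on the exon lengths used, 2448 bases for Lum and 6099 for Bgn. By CPM, Bgn was above Lum in both DMSO libraries, at 23.0 and 25.9 against 19.1 and 15.4. Ogn averaged 0.0559 ± 0.0790 RPKM in cucurbitacin I, a spread that overlaps the level of Dcn.

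The make-up of the family differed accordingly. Over the 17 family genes the summed level was 24.2 and 22.9 RPKM in DMSO and 14.5 and 10.6 RPKM in cucurbitacin I. The 7 members made up 55.7% and 60.1% of that sum in DMSO and 5.45% and 5.76% in cucurbitacin I. Tsku, Optc and Podn together made up 43.1% and 38.4% in DMSO and 93.2% and 91.6% in cucurbitacin I. Lum alone went from 32.2% and 27.5% of the sum to 0.923% and 1.22%, whereas Optc went from 1.40% and 1.06% to 17.3% and 14.2%. Exonic lengths of all annotated transcripts were used, and a shorter main transcript would raise a gene's level by the same factor in every library. The order of genes within a library and the shares of the family sum depend on these lengths.

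**Figure D3:**
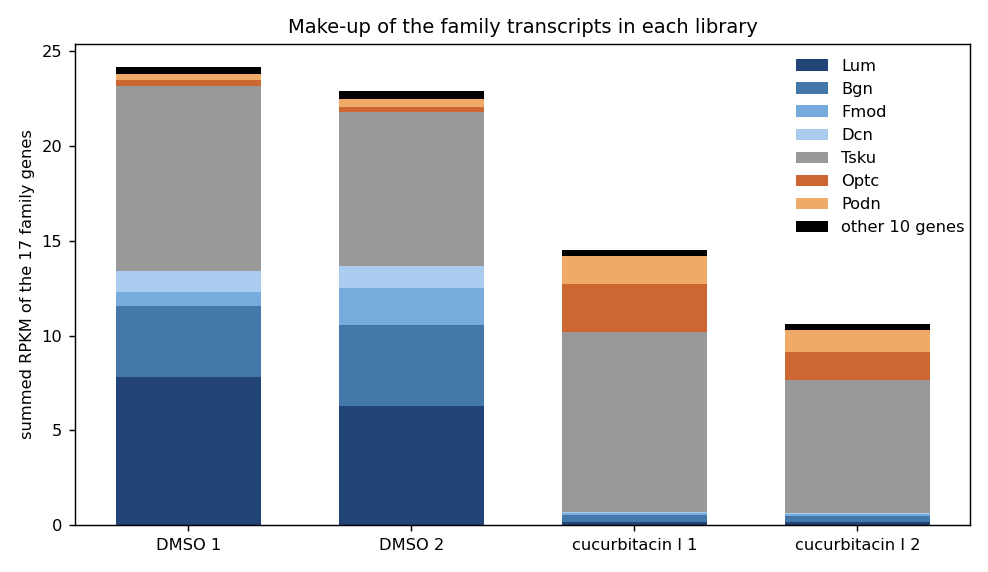
Summed RPKM of the 17 family genes in each library, stacked by gene; blue shades are the 4 members tested, grey is Tsku, orange shades are Optc and Podn, and black is the rest of the family. Lum alone fills 32.2% and 27.5% of the DMSO bars and 0.923% and 1.22% of the cucurbitacin I bars.

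Collagens are the main partners of these proteins. Of 14 collagen genes, 4 were called lower, 1 higher and 9 did not pass, with a median log2 fold change of -0.68 against -0.01 over all genes tested (33.4% of which were called in either direction). Col1a2, a chain of type I collagen, fell by 3.84 (SE 0.31, adjusted p = 0.00234). Its partner chain Col1a1, at a log2 fold change of 0.44, missed the threshold (adjusted p = 0.532), with 139 and 447 CPM in the DMSO libraries. Col14a1, a fibril-associated collagen, fell by 2.73 and Col5a2, a chain that regulates fibril diameter, by 1.88, while Col11a2 rose by 1.32. Col3a1 was at -0.67 (adjusted p = 0.101) and Col5a1 at -0.13 (adjusted p = 0.631).

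Relations within a library do not depend on the scaling between libraries. Bgn stood at 7.48% and 6.39% of the Col5a1 level per kilobase in DMSO and at 0.659% and 0.735% in cucurbitacin I. Lum went from 15.5% and 9.47% of the Col5a1 level to 0.223% and 0.279%. Both proteoglycans were thus lower relative to this collagen in each cucurbitacin I library. That does not hold for every collagen. Col1a2, which was not among the partners compared, had a log2 fold change of -3.84. This was a larger fall than that of Bgn (-3.44) or Fmod (-3.66). Relative to Pdgfrb, a receptor of mural cells and fibroblasts, the members separated. Bgn was at 17.1% and 17.2% of the Pdgfrb level in DMSO and at 19.6% and 20.5% in cucurbitacin I. Lum went from 35.4% and 25.5% of it to 6.61% and 7.75%, and Dcn from 5.07% and 4.72% to 2.42% and 1.86%. Fmod, at 3.26% and 7.94% in DMSO and 4.89% and 6.56% in cucurbitacin I, overlapped between the groups. Relative to Pdgfra, another receptor of fibroblasts, all 4 members were lower in both cucurbitacin I libraries. Bgn went from 15.3% and 16.1% of the Pdgfra level to 10.5% and 6.15%, and Fmod from 2.91% and 7.41% to 2.63% and 1.97%. Lum went from 31.6% and 23.8% to 3.55% and 2.33%, and Dcn from 4.53% and 4.41% to 1.30% and 0.558%. These ratios are descriptions without a test.

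**Figure D4:**
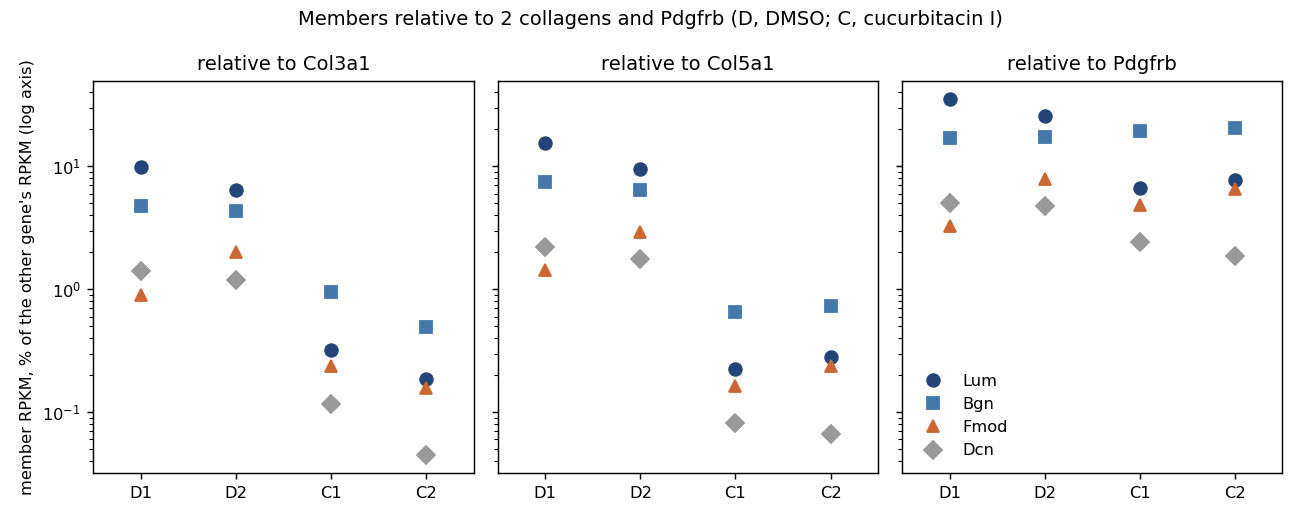
RPKM of Lum, Bgn, Fmod and Dcn as a percentage of the RPKM of Col3a1, Col5a1 or Pdgfrb in the same library, on a log axis; each point is 1 library. All 4 members are lower relative to the collagens drawn in the cucurbitacin I libraries, while relative to Pdgfrb Bgn lies between 17.1% and 20.5% in all 4 libraries. Pdgfra is not drawn, nor is Col1a2, which fell more on the log2 scale than Bgn and Fmod.

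The genes with the most similar pattern were sought by Euclidean distance between log2 CPM values centred over the 4 libraries, among genes averaging at least 5 CPM. Pdgfrb was nearest to Bgn (distance 0.26 log2 units), followed by Ctla2a (0.34) and the interferon-linked ubiquitin ligase gene Trim25 (0.34). For Lum they were Tmem26 (0.35), the steroid dehydrogenase gene Hsd11b2 (0.48) and the pericyte marker Rgs5 (0.50). For Dcn they were the transcription factor gene Mecom (0.37), the antiviral helicase gene Ddx60 (0.40) and the cytochrome P450 gene Cyp1b1 (0.43). With 4 libraries in 2 groups, such distances mostly rank genes by the size of their fall. The near-constant ratio of Bgn to Pdgfrb given above restates their small distance and is not a separate observation.

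Markers of several cell types were called lower as well. Over all genes tested, 19.5% were called lower and 13.9% higher. Of 12 fibroblast markers, 8 were called lower and 4 did not pass, with a median log2 fold change of -1.90. Pdgfrb fell from 128 ± 10.3 to 10.1 ± 1.40 CPM and Pdgfra from 256 ± 12.6 to 46.7 ± 12.5 CPM (SD, n = 2). Of the 12, Col1a1, Col1a2 and Col3a1 are also among the collagens above. The summed level of the 12 was 3386 and 4237 CPM in DMSO and 3573 and 2759 CPM in cucurbitacin I, and none was at 0 in either group. Vim (0.34), Fn1 (0.31), Col1a1 (0.44) and Col3a1 (-0.67) did not pass. Vim and Fn1 are also expressed outside fibroblasts. The same holds for markers that were called lower: Pdgfrb is a receptor of mural cells too, Pdgfra is also among the cardiac progenitor markers and Tcf21 among the epicardial markers. Of 8 tendon and cartilage markers 4 were tested, and Scx, Mkx and Sox9 were called lower. That list summed to 227 and 154 CPM in DMSO and to 101 and 114 CPM in cucurbitacin I, and Tnmd was at 0 in cucurbitacin I. Most of the sum was Col2a1, at 199 and 129 CPM in DMSO and 95.4 and 108 CPM in cucurbitacin I. Col2a1 did not pass (adjusted p = 0.0598) and is also among the collagens above. Markers of other lineages were lower too. Of 6 endoderm markers all 6 were called lower (median -5.56), and they summed to 486 and 768 CPM in DMSO and to 3.77 and 5.65 CPM in cucurbitacin I. Of 6 blood markers 5 were called lower (median -4.73), from 499 and 718 CPM in sum to 29.7 and 57.0 CPM. Of 6 endothelial markers 4 were called lower (median -2.16), from 120 and 149 CPM in sum to 21.6 and 28.9 CPM, with Emcn at 0 in cucurbitacin I and no other marker of these 3 lists at 0 in a whole group. Of 7 smooth muscle markers 6 were called higher, from 4426 and 6521 CPM in sum to 40041 and 32555 CPM. Of the 8 cardiac progenitor markers, whose sums are given above, 5 were called lower and 1 higher (median -1.60). Kdr was counted among the endothelial markers, the cardiac progenitor markers and the receptors below. The part of any of these cell types in the proteoglycan results was not tested.

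Enzymes that build the sugar chains went both ways. Of 23 genes for chondroitin and dermatan sulfate chains, 22 were tested, of which 6 were lower and 3 higher, with a median of -0.19. Chst3, a chondroitin sulfotransferase, fell by 3.36 (SE 0.35, adjusted p = 0.00384). Chsy3, a chondroitin synthase, fell by 1.69 and Acpl2, the xylose phosphatase gene now named Pxylp1, by 1.40, and both calls were lost without DMSO replicate 1 (adjusted p = 0.0795 and 0.0636). Another chondroitin sulfotransferase gene, Chst12, rose by 2.01, from 32.2 ± 7.09 to 130 ± 49.6 CPM (SD, n = 2, adjusted p = 0.00832). Of 7 keratan sulfate genes 5 were tested, and the sulfotransferase gene Chst2 fell by 2.02 (SE 0.18, adjusted p = 0.00275) while the other 4 did not pass. The share of genes called in these 2 lists, 40.9% and 20% of those tested, lies around the 33.4% of all genes.

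Collagen-modifying enzymes included the lysyl oxidase family, which crosslinks the fibrils that these proteoglycans coat. Of 13 genes, 3 were higher, 1 lower and 9 did not pass (median 0.29), and the 30.8% called lies near the 33.4% of all genes. Lox had 78 and 178 counts in DMSO and 20 and 14 in cucurbitacin I and fell by 2.64 (SE 0.54, adjusted p = 0.0183), or by 1.83 without DMSO replicate 2 (adjusted p = 0.0437). Its relative Loxl2 rose by 1.61 (SE 0.26, adjusted p = 0.00981), a call lost without DMSO replicate 1 (0.0557). The hydroxylase genes P4ha1 (0.57) and Plod1 (0.56) rose as well, but neither passed with library totals alone as the scaling (adjusted p = 0.104 and 0.142). They also failed without either DMSO library or without cucurbitacin I replicate 1.

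Ligands and receptors of the proteoglycans were called in both directions. In the TGF-beta axis of 10 genes, 3 were lower and 7 did not pass (median -0.20), or 30% called against 33.4% of all genes. Those called were Ltbp4 (-1.37) and Ltbp3 (-0.62), which encode latent TGF-beta binding proteins, and the receptor gene Tgfbr2 (-0.57). Ltbp3 lost its call without DMSO replicate 2, and Tgfbr2 without either DMSO library or without cucurbitacin I replicate 2. Among 11 receptor genes, 10 were tested, of which 3 were lower and 2 higher (median -0.48), or 50% called. Cd14, a co-receptor of the Toll-like receptors that biglycan engages, fell from 230 and 176 counts in DMSO to 3 and 1 in cucurbitacin I, or from 7.08 ± 0.853 to 0.0841 ± 0.0550 CPM (SD, n = 2, adjusted p = 0.00187). Its log2 fold change of -6.29 was -7.14 without cucurbitacin I replicate 1. Kdr, reported as a decorin-binding receptor of endothelium, fell by 3.09, and Itga2 by 2.08, its call failing without DMSO replicate 1 (log2 fold change -1.40, adjusted p = 0.171) or cucurbitacin I replicate 2 (adjusted p = 0.0912). Igf1r, the IGF-I receptor, rose by 1.45 (SE 0.14, adjusted p = 0.00301).

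Proteases that act on these proteins were also mixed. Of 12 genes, 9 were tested, with 3 lower, 1 higher and 5 not past the threshold (median -0.14), or 44.4% called against 33.4% of all genes. Mmp2, a gelatinase, fell by 2.09 (SE 0.25, adjusted p = 0.00529), Htra1 by 1.24 and the membrane-bound Mmp14 by 0.46. Pcolce, the enhancer of procollagen C-proteinase, rose by 0.67 (adjusted p = 0.0163). Htra1 lost its call without DMSO replicate 2, Pcolce without DMSO replicate 1, and Mmp14 without either DMSO library or without cucurbitacin I replicate 1.

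**Figure D5:**
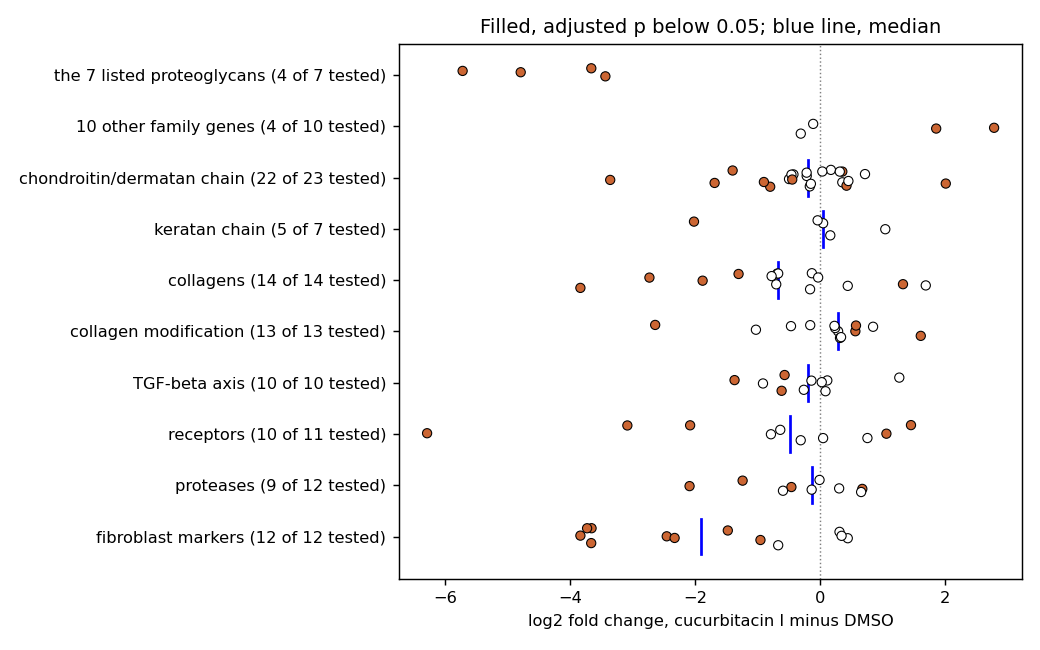
Log2 fold change of cucurbitacin I minus DMSO for every tested gene of each list; filled points have an adjusted p below 0.05 and blue lines are medians, drawn for lists other than the proteoglycans themselves. The 4 listed proteoglycans tested lie at -3.44 or below, beyond most collagens and chain enzymes, whose medians lie between -0.68 and 0.05.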

How the data were processed

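RNA was sequenced from 4 libraries, 2 per group, and groups were taken from the sample titles. STAR 2.3.0e, HTSeq 0.6.0 and build mm10 are named in the submitters' processing notes; neither annotation release nor strand setting is known from the sources used here. Raw counts of each gene were deposited by the authors, per the file headers. Their table also holds a normalized signal, deposited by the authors: dividing the counts by it gave 1 constant per library, from 0.8632 to 1.1675. The log2 fold change and adjusted p-value of their own comparison were deposited too, under DESeq2's column names per the file headers.

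Of 43374 lines, 4195 repeated an identifier and were left out. The quasi-likelihood test of edgeR 4.0.16 (R 4.3.3, 2-sided) was run after filterByExpr at a minimum count of 10 and TMM scaling (factors from 0.912 to 1.107), with Benjamini-Hochberg adjustment over 16722 genes and a threshold of 0.05. The SE was taken from the log2 fold change and F, and intervals use the test's t quantile. The fit had 2 residual degrees of freedom, and the common biological coefficient of variation was 15.7%. For 1 gene, the smallest p of an exact permutation test in this design is 0.33. Replicates differed beyond sampling noise (chi-square of 26.1 and 36.5 per degree of freedom). Exonic lengths and strands came from GENCODE M21, and 2 list genes were matched by identifier. A group at 0 was set to 3 counts.

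The members and lists were chosen with earlier results of these data known. Named are the 17 family genes, up to 4 called genes of each of 7 lists (3 in the more frequent direction, 1 in the other, by adjusted p) and the 3 nearest genes to Lum, Dcn and Bgn; Col1a1, Col3a1, Col5a1, Pdgfra, Vim, Fn1 and the tendon markers were chosen after their values were seen. Alternatives were DESeq2 1.42.0, a threshold of 0.01, each library left out, a replicate block, scaling by median of ratios or by library totals alone, and the filter dropped or raised to a mean of 50 counts. CpG dinucleotides were marked after the motif search gave no match in the windows shown.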

Additional observations from a re-analysis of the deposited data

How the results depend on the processing

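Lum, Dcn and Bgn kept their direction and their call under all 11 alternatives, with log2 fold changes from -5.96 to -5.56, -5.16 to -4.51 and -3.67 to -3.33. Fmod ranged from -4.21 to -2.77 and lost its call at the 0.01 threshold only. The number of members called lower was 4 under 10 alternatives and 3 at that threshold. Over all genes, 2318 were higher and 3259 lower. The counts were 1059 higher and 4767 lower with library totals alone, so that 18.2% in place of 41.6% of the calls were higher. The median over all genes tested then lay at -0.24 on the log2 scale in place of -0.01. At the 0.01 threshold they were 492 and 1262. With 1 library left out, the higher calls ran from 389 to 2109 and the lower calls from 1461 to 3001, both lowest without DMSO replicate 1. The lone library of a group is then assumed to vary like the other group. With the replicate number as a block, 2660 genes were higher and 3707 lower, and the members called lower remained 4 in number. Deviations of same-numbered libraries correlated at 0.24, but no label says that the numbers mark shared cultures. With DESeq2, 6 collagens were lower in place of 4, 4 collagen-modifying genes were higher in place of 3 and 2 lower in place of 1, 3 receptors were higher in place of 2 and 9 fibroblast markers were lower in place of 8. Tendon and cartilage markers called lower were 4 in place of 3 and endothelial markers 5 in place of 4. Epicardial markers called lower were 4 in place of 3 and cardiomyocyte markers called higher 5 in place of 4. Of the other named genes, 2 reversed in sign, neither of them called: Tsku (0.03 without DMSO replicate 1 and 0.095 without cucurbitacin I replicate 2, where leaving out a library gave at lowest -0.34 and library totals -0.35) and Nyx (0.30 without cucurbitacin I replicate 1, where leaving out a library gave at lowest -1.28). The cause was not tested. Depth limits Prelp, Ogn, Aspn and the 6 relatives that were not tested, where counts of 14 or fewer per group leave moderate differences undetectable.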
